A study of Rattus norvegicus with 6 samples.

Results

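Drug-treated HRAS-transformed rat fibroblasts were compared with untreated immortal rat fibroblasts, over 3 of the 6 arrays of the study. The treated cells were FE8, a rat fibroblast line transformed by the HRAS oncogene, given 0.3 µM 5-aza-2'-deoxycytidine (decitabine) for 96 h, on 2 arrays. Untreated 208F, an immortal rat fibroblast line without that oncogene, was on 1 array. Untreated FE8 (1 array) marked where each gene stood before the drug, and 208F under an equal drug exposure (2 arrays) supplied further error and values for reading. Every probe set that is not a chip control was used, 4818 of the 4847 in the table, and each signal was taken as log2(signal + 64). The design thus asks which genes of treated transformed cells reached the level of untreated immortal cells, went past it, or stayed away from it.

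Decitabine is a cytidine analogue that is built into replicating DNA and traps DNA methyltransferases there, so that CpG methylation is lost as cells divide. Genes silenced by promoter methylation can then be transcribed, and endogenous retroviral transcripts released in the same way are known to set off an interferon response. Oncogenic HRAS signals through the RAF, MEK and ERK kinases to transcription factors such as AP-1, and RAS-transformed fibroblasts are known for high matrix protease and low collagen and contractile gene expression.

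FE8 is 1 transformed line, how the oncogene was introduced is not given in the sources used here, and Hras had no probe set in the table. Whether the duplicates are separate cultures is not in the labels, so p-values here cover only the spread between the samples at hand, which can be technical. Both treated FE8 arrays were scanned in the same year on chip lot 3, and the untreated 208F array in another year on chip lot 1. Line, drug, scan year and lot therefore cannot be told apart in this comparison. Untreated FE8 shared the scan session and chip lot 1 of untreated 208F. The treated 208F arrays shared the scan session of treated FE8, on chip lots 2 and 3. In both lines, any difference between treated and untreated arrays is thus also one between scan sessions. The 5'/3' signal ratio of beta-actin, which drops when RNA or its copying is incomplete, was 0.405 and 0.384 in treated FE8. It was 0.351 in untreated FE8 and 0.824 in untreated 208F. The same ratio of GAPDH went the other way, at 1.13 and 1.07 in treated FE8 and 0.916 in untreated 208F. In untreated FE8 the GAPDH ratio was 0.691. The share of probe sets below 64 was 6.99% and 9.71% in treated FE8 and 13.3% in untreated 208F. The treated FE8 duplicates differed by a median of 0.27 log2 units, and 96.8% of probe sets lay within 1 unit. In bulk RNA, fewer cells of a type and less RNA per cell cannot be told apart.

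The labelled cell type was checked against fibroblast markers. Of 9 measured markers, Vim (vimentin) had signals of 7118 and 8827 in treated FE8 and 18849 in untreated 208F, S100a4 had 18290 and 18273 in treated FE8 and 20185 in untreated 208F, and Thy1 had 2565 and 2608 in treated FE8 and 3635 in untreated 208F. The summed signal of the 9 was 39159 and 39469 in treated FE8 and 93612 in untreated 208F. The 5 members that were called lower were Vim (-1.24 ± 0.29), Col1a1, Col1a2, Col3a1 and Fn1. Markers of other cell types are given with the genes they touch. The single measured blood marker and the 3 endothelial markers were not called, with Flt1 having the lowest limma adjusted p (0.20).

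Since the drug lowers CpG methylation, promoters are printed for the first gene of 6 outcomes that has one in the table, to show how unlike they are in CpG content. They run from 250 bases before to 50 bases after the start of the gene, 5′ to 3′ on the strand of the gene, from RefSeq on build GRCr8, with each CG in capitals. Hes1 reached the 208F level from below, Scd reached it from above, Idi1 overshot it, Mmp10 kept its difference, and Plin2 and Idh2 gained one.
Hes1 (chr11:84212996-84213295, minus strand): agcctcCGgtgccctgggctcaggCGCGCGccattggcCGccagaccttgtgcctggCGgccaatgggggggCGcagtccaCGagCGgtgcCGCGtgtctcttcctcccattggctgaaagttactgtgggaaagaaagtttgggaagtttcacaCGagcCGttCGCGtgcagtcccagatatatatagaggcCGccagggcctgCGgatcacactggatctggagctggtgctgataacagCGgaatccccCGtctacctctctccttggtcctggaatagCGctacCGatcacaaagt
Scd (chr1:253231682-253231981, minus strand): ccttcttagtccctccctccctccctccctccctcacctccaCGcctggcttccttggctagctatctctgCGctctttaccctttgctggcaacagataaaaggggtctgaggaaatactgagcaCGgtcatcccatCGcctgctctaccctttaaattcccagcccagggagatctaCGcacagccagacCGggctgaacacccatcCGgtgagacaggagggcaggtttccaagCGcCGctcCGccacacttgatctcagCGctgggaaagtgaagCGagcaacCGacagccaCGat
Idi1 (chr17:66547475-66547774, minus strand): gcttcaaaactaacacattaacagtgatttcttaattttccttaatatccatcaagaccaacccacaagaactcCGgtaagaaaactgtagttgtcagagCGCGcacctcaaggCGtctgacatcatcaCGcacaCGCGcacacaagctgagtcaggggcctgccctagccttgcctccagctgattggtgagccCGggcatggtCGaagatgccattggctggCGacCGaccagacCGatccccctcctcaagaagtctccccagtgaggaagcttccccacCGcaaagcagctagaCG
Mmp10 (chr8:12974457-12974756, plus strand): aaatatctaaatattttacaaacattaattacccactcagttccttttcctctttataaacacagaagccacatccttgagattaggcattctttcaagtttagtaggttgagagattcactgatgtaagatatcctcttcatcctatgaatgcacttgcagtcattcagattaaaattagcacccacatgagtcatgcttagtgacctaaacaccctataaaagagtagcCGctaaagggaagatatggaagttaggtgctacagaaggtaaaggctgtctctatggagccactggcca
Plin2 (chr5:106228969-106229268, minus strand): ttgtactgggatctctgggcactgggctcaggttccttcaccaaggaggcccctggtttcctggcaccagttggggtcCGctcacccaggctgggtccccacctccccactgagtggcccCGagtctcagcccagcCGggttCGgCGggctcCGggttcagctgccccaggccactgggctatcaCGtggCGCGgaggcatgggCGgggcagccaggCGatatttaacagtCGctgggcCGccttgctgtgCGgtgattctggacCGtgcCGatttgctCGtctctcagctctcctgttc
Idh2 (chr1:143467199-143467498, minus strand): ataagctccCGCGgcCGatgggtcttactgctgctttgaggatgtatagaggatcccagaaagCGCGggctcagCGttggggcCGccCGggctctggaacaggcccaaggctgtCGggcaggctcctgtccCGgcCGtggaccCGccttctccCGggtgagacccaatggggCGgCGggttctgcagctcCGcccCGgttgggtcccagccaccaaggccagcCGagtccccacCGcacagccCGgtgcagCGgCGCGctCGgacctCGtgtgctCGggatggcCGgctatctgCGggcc
The Mmp10 window holds 1 CG and the Idh2 window 28, with 21 in Hes1, 17 in Plin2 and 14 in each of Scd and Idi1. No methylation was measured in these files, so the letters describe the windows only.

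In treated FE8, 744 of 4818 probe sets (15.4%) differed from untreated 208F at a limma adjusted p under 0.05, 428 higher (8.88%) and 316 lower (6.56%). Both treated FE8 arrays lay on the same side of the 208F array for all 744. The call on their mean largely entails this, so it lends no further weight to the calls. By comparison, untreated FE8 differed from untreated 208F at 285 probe sets (5.92%), 149 higher (3.09%) and 136 lower (2.82%), with 1 array a side. The comparisons differ in their number of FE8 arrays, so the sizes of these counts are not set against each other. The median difference of treated FE8 over all probe sets was 0.11, and 80.6% of them lay within 1 log2 unit of untreated 208F. The count fell when either treated FE8 array was left out and rose when either treated 208F array was left out. Each such fit takes its error from a single pair of duplicates, and the reason for the opposite moves was not tested.

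**Figure D1:**
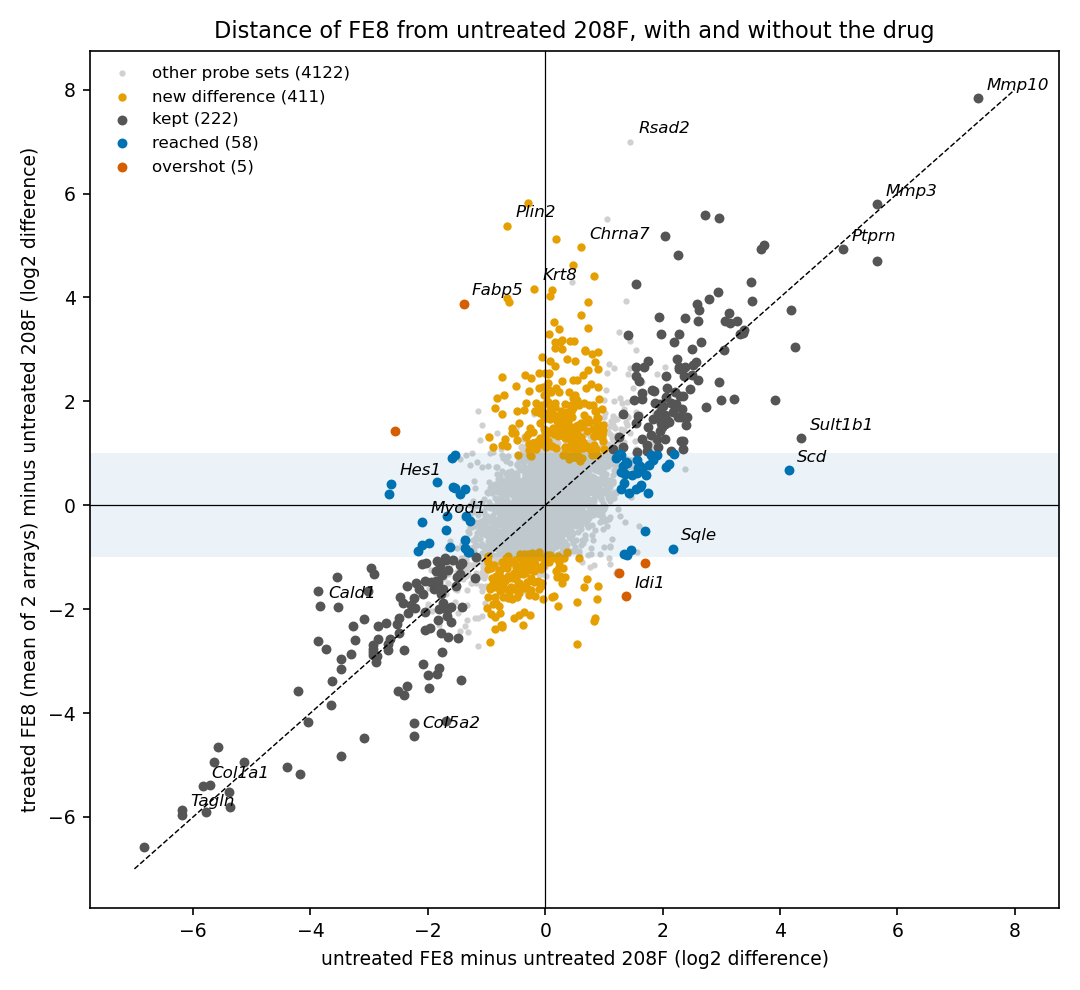
Each point is a probe set, with the log2 difference of untreated FE8 from untreated 208F on the x axis and of treated FE8 (mean of 2 arrays) from untreated 208F on the y axis; both axes use the same 208F array. Points on the dashed line kept their difference, and the shaded band holds levels within 1 log2 unit of untreated 208F, where 58 starting differences ended, while 411 new differences rise or fall along the middle.

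Of the 285 starting differences, 222 (77.9%) were kept, with treated FE8 still at least 1 log2 unit from untreated 208F on the same side. Another 58 (20.4%) reached the 208F level, meaning that treated FE8 came within 1 log2 unit of it, and 5 (1.75%) overshot it by at least 1 unit on the other side. The outcomes go by size and not by the test, so 7 of the 58 reached probe sets are still among the 744 calls (4 higher, 3 lower in treated FE8), as are 213 of the 222 kept. A called drug effect in FE8 was not required either, and 28 of the 58 reached probe sets had one, all toward 208F. Of those that started higher in FE8, 36 of 149 (24.2%) reached the level, and of those that started lower, 22 of 136 (16.2%) did. The share of the starting difference that was gone had a median of 14.4%, with quartiles of -11.2% and 41.6%. Both differences use the same 208F array and starting differences were picked on single arrays, so these counts are a description without a test.

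Among the 222 kept differences, 45 had narrowed to less than 0.75 of their size, 48 had widened by more than 25%, and 129 lay between. These names go by size against 1 untreated FE8 array. The drug effect in FE8 was called toward 208F for 9 of the 222 and away from it for 26. The line at 1 log2 unit split close values, with 12 probe sets less than 0.1 inside it and 10 less than 0.1 outside. Arpc5l and Cnn3 ended just inside at 0.99 each, and Hspb1 at -1.02 and Rala at 1.02 just outside. The share that reached the level depended on which arrays were used. Without treated FE8 replicate 1 or 2 only 4 of 109 (3.67%) or 5 of 113 (4.42%) starting differences counted as reached and 104 or 107 as kept. Without treated 208F replicate 1 or 2 it was 201 of 541 (37.2%) or 201 of 536 (37.5%), with 329 or 325 kept, so both the number of starting differences and the share that reached the level moved by more than 1.5 times.

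**Figure D2:**
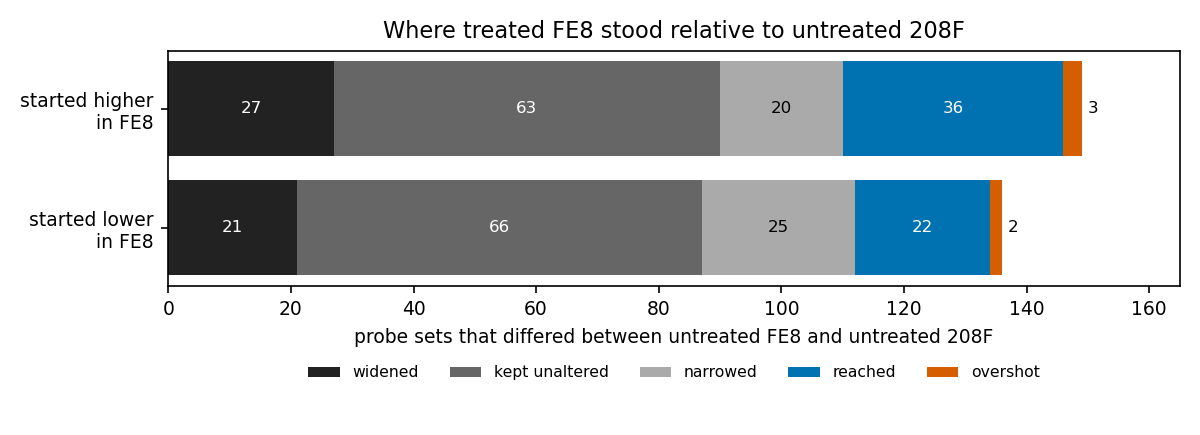
Bars count the 285 probe sets that differed between untreated FE8 and untreated 208F, by where treated FE8 stood; the x axis is the number of probe sets. Of those that started higher, 27 widened, 63 were kept between the bounds, 20 narrowed, 36 reached the 208F level and 3 overshot it, and of those that started lower the numbers were 21, 66, 25, 22 and 2.

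Most measured collagen genes, and a majority of contractile genes, were lower in treated FE8 than in the immortal line. Of 7 measured collagen genes, 6 were lower in treated FE8, none was higher and Col12a1 (-0.82 ± 0.40 log2 units, standard error) was not called, with a list median of -3.36 beside 0.12 over all 2890 measured genes. Col1a1, a chain of the fibrillar type I collagen, had signals of 204 and 188 in treated FE8, 130 in untreated FE8, 3243 and 3338 in treated 208F, and 11000 in untreated 208F. Both treated FE8 arrays lay more than an order of magnitude below every 208F array, and the difference from untreated 208F was -5.41 ± 0.27 (limma adjusted p = 5.9e-07). It had been -5.83 before the drug.

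Other collagens ended further from 208F than they had started. Col5a2, a chain of type V collagen, had signals of 399 and 251 in treated FE8, 1706 in untreated FE8, and 8262 in untreated 208F. Its difference from 208F was -4.45 ± 0.30 with the drug and -2.23 without it, and the treated arrays lay below the untreated FE8 array. Col1a2, the second chain of type I collagen, followed the same order with 1479 and 1108 in treated FE8, 5073 in untreated FE8 and 13772 in untreated 208F, a difference of -3.36 ± 0.31. Col3a1 (-4.83 ± 0.41, after a start of -3.49) and Col5a1 (-3.28 ± 0.33) widened as well, and their treated FE8 signals were the lowest of the 4 groups. For Col3a1 the drug effect in FE8 was not called.

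Among matrix glycoproteins and crosslinking enzymes, 8 of 15 measured genes were lower, 1 was higher and 6 were not called, with a median of -1.27. Fbln5 (fibulin, a part of elastic fibres) had 91 and 45 in treated FE8 and 4620 in untreated 208F, a difference of -5.17 ± 0.35. Lox, the lysyl oxidase that crosslinks collagen and elastin, had 1060 and 868 in treated FE8, 2953 in untreated FE8 and 6592 in untreated 208F, a difference of -2.70 ± 0.27 after a start of -1.14. Fn1 (fibronectin) narrowed by the probe set with the smallest p, with 349 and 332 in treated FE8, 142 in untreated FE8 and 2690 in untreated 208F, at -2.77 ± 0.30 after a start of -3.74, though the drug effect in FE8 was not called there (adjusted p = 0.077). The brightest probe set of Fn1, which the list count uses, had 3139 and 2100 in treated FE8, 1771 in untreated FE8 and 13153 in untreated 208F, and its -2.33 ± 0.33 after -2.85 lay between the bounds for narrowed and widened. Loxl1, a lysyl oxidase-like enzyme, was the higher member at 1.11 ± 0.26. Sparc, which encodes osteonectin, cannot be read as 1 value, because its 4 probe sets lay between -4.19 and 0.56 and the brightest was not called.

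Of 9 measured actin and contractile genes, 7 were lower and 2 were not called, with a median of -1.94. Among the 7, 5 kept a difference that untreated FE8 already had, and the tropomyosins Tpm2 (-1.22 ± 0.33) and Tpm4 (-1.01 ± 0.30) had not differed by the test at the start. Tagln (transgelin, an actin-binding protein of smooth muscle) had 55 and 25 in treated FE8, 24 in untreated FE8, 2017 and 2129 in treated 208F, and 6329 in untreated 208F. All 3 FE8 arrays lay below 64, where the pseudocount holds the size of a difference down, and the log2 difference was -5.96 ± 0.33 (adjusted p = 8.7e-07). Myl9, a myosin light chain, and Acta2, smooth muscle actin, stood at -5.53 ± 0.36 and -5.80 ± 0.36. Cald1 (caldesmon) narrowed to -1.94 ± 0.34 after a start of -3.85, with 237 and 219 in treated FE8, 14 in untreated FE8 and 1058 in untreated 208F. Actb and Actg1, the cytoplasmic actins, were not called (-0.23 ± 0.31 and -0.70 ± 0.39). The 5'/3' ratio of beta-actin moved with these lists, at 0.405 and 0.384 in treated FE8 and 0.824 in untreated 208F. The ratio of GAPDH moved the other way, at 1.13 and 1.07 in treated FE8 and 0.916 in untreated 208F. The part of either ratio in the result was not tested.

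Further genes that stayed low were regulators and secreted factors. The homeobox factor Meox2 had 48 and 27 in treated FE8, 201 in untreated FE8 and 2201 in untreated 208F, a difference of -4.49 ± 0.37 that had widened. Tgfb3, a TGF-beta ligand, was kept at -4.18 ± 0.33, and Car3, a carbonic anhydrase, at -4.95 ± 0.35. Fstl1, a follistatin-like secreted protein, and Grb10, an imprinted adaptor that restrains insulin signalling, widened to -3.48 ± 0.28 and -3.26 ± 0.32. Grb10 had 126 and 93 in treated FE8 but 1287 and 1277 in treated 208F, near the 1585 of untreated 208F.

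Several matrix proteases were far above the immortal line. Of 16 measured proteases and inhibitors, 9 were higher in treated FE8, 1 was lower and 6 were not called, with a median of 1.33 in treated FE8 and 0.21 in untreated FE8. Among the 9 higher, 6 had started higher and Plau, Plaur and Timp1 were new, and Mmp9, Mmp11 and Mmp14 were among those not called (1.28 ± 0.43, -0.52 ± 0.47 and -0.03 ± 0.27). Mmp10, a stromelysin that degrades matrix proteins, had signals of 17685 and 17769 in treated FE8, 12849 in untreated FE8, 22 and 63 in treated 208F, and 14 in untreated 208F. No 208F array reached 64, and the difference of 7.83 ± 0.31 (adjusted p = 1.8e-07) was the largest of the comparison. Mmp3, the related stromelysin, had 7737 and 6887 in treated FE8 and 68 in untreated 208F, at 5.80 ± 0.28. Mmp13, a collagenase, had 6859 and 8014 in treated FE8, 14268 in untreated FE8 and 222 in untreated 208F, and stayed 4.71 ± 0.27 above 208F.

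The plasminogen activator system joined the metalloproteinases. Serpinb2, an inhibitor of urokinase, had 2221 and 2826 in treated FE8, 990 in untreated FE8 and 16 in untreated 208F, a difference of 5.01 ± 0.35 after a start of 3.72. Plau, urokinase itself, had 635 and 676 in treated FE8 but 61 in untreated FE8 and 48 in untreated 208F, so its difference of 2.68 ± 0.35 was new. Plat, tissue plasminogen activator, was higher with 406 and 587 in treated FE8 against 5 in untreated 208F (adjusted p = 0.00082). Also higher were the protease Ctsl by 2.16 ± 0.27, the urokinase receptor Plaur by 1.37 ± 0.30 and the inhibitor Timp1 by 1.07 ± 0.29. Plaur had started at 0.97, and its drug effect in FE8 was only 0.40 ± 0.30. Mmp2, a gelatinase that fibroblasts make, was the lower member, with 298 and 334 in treated FE8, 21 in untreated FE8 and 927 in untreated 208F. Its difference narrowed to -1.38 ± 0.32 after a start of -3.54, and it was not called when treated FE8 replicate 1 or 2 was left out (adjusted p = 0.11 and 0.077).

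The promoter windows of the protease and RAS-MAPK output lists were searched for the AP-1 motif TGANTCA, which reads the same on both strands. It stood in 6 of the 11 protease promoters in the table, beside 7.33% of all 27457 promoters of the same length and 5.47% of those of the measured genes. In the RAS-MAPK output list it stood in 1 of 15 promoters (6.67%), that of Plaur, a gene of both lists. The matches are shown in capitals with up to 10 bases on each side.
Mmp3: gaagcaattaTGAGTCAgtttgcgggt
Mmp10: agcacccacaTGAGTCAtgcttagtga
Mmp12: acatcaacagTGAGTCAtattgaggat
Mmp13: ccccaagtggTGACTCAtcactattgc
Plaur: ggatcccagcTGACTCActctttagca
Serpinb2: ctgtttaaaaTGATTCAgatttccaga
In Mmp3, Mmp10 and Mmp13 the match began at positions -71, -61 and -66 from the start, and AP-1 elements close to the start are well known from human metalloproteinase promoters. The windows describe letters, and binding was not measured. Mmp12, macrophage elastase, has the motif and was not called (150 and 162 in treated FE8 against 37 in untreated 208F, 1.12 ± 0.39).

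Genes downstream of RAS were mostly above the immortal line. Of 20 measured genes that ERK signalling is known to raise, 13 were higher in treated FE8, none was lower and 7 were not called, with a median of 1.65, beside 0.79 for untreated FE8. Dusp6, a phosphatase that switches ERK off, had 4735 and 5857 in treated FE8, 2279 in untreated FE8 and 275 in untreated 208F by the probe set with the smallest p, a difference of 3.97 ± 0.28. Both treated arrays lay above every other array. Dusp5, a nuclear ERK phosphatase, stood at 2.82 ± 0.27, Spp1 (osteopontin) at 3.15 ± 0.34, and the EGF receptor ligand Areg at 3.15 ± 0.42.

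Immediate early genes made up part of the new differences. Egr1, a zinc finger factor induced by ERK, had 21256 and 20151 in treated FE8, 2798 in untreated FE8, 7747 and 5821 in treated 208F, and 3571 in untreated 208F. Its difference of 2.51 ± 0.29 was new, since untreated FE8 had been at -0.34. Egr2 (2.41 ± 0.38), the AP-1 subunit Junb (1.66 ± 0.29) and Ccnd1, cyclin D1 (1.74 ± 0.27), were new as well. Fosl1, the AP-1 subunit Fra-1, narrowed to 2.04 ± 0.33 after a start of 3.22, with 1706 and 1890 in treated FE8, 4140 in untreated FE8 and 387 in untreated 208F. Its drug effect in FE8 was not called. Fos, Jun and Myc were not called, at -0.27 ± 0.37, 0.43 ± 0.32 and 0.66 ± 0.40.

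Stress genes of the ATF4 pathway were above untreated 208F too. Of 8 measured genes of the integrated stress response, 7 were higher and 1 was not called, with a median of 1.48 in treated FE8 and 1.61 in untreated FE8. The median drug effect on these genes was 0.95 in 208F and 0.05 in FE8. The gene not called by its brightest probe set was Phgdh. Of its 3 probe sets, which lay between 0.86 and 1.79, 2 were called. Ddit3, the stress transcription factor CHOP, had 5429 and 6724 in treated FE8, 4972 in untreated FE8 and 459 in untreated 208F, at 3.55 ± 0.27. In treated 208F it had 2642 and 2455. Trib3, a pseudokinase induced by ATF4, stood at 3.38 ± 0.36, but only 0.19 ± 0.29 from treated 208F. Atf3, a related stress factor, was a new member, with 682 and 794 in treated FE8, 207 in untreated FE8 and 94 in untreated 208F (2.34 ± 0.33).

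Several other genes kept or widened an excess that untreated FE8 already had. Ptprn, a secretory granule protein of neuroendocrine cells, had 3016 and 2888 in treated FE8, 3277 in untreated FE8 and 35 in untreated 208F, at 4.93 ± 0.28. Abcb1b, a P-glycoprotein drug efflux pump, had 5540 and 5566 in treated FE8, 890 in untreated FE8 and 135 in untreated 208F, at 4.82 ± 0.26. Ocm (oncomodulin, a calcium-binding protein) had 4030 and 4291 in treated FE8 and 74 in untreated 208F, and the treated 208F arrays, with 3518 and 2490, came close to the treated FE8 arrays. The intestinal cadherin Cdh17 widened to 3.77 ± 0.39 and Upb1, an enzyme of pyrimidine breakdown, to 3.54 ± 0.31. For neither Cdh17 nor Upb1 was the drug effect in FE8 called. Sult1b1, a sulfotransferase, narrowed, with 110 and 314 in treated FE8, 2098 in untreated FE8 and 41 in untreated 208F, and its remaining 1.29 ± 0.48 was not called.

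A smaller set of genes started below the immortal level and ended near it. Hes1, a transcriptional repressor downstream of Notch, had 594 and 536 in treated FE8, 12 in untreated FE8, 460 and 557 in treated 208F, and 406 in untreated 208F. The untreated FE8 array stood alone below 64 while all other arrays lay close together, and the remaining difference was 0.42 ± 0.34 with a 95% interval of -0.34 to 1.17, after a start of -2.63. Myod1, the master regulator of muscle differentiation, had 206 and 188 in treated FE8, 12 in untreated FE8, 1302 and 1147 in treated 208F, and 260 in untreated 208F. Treated FE8 thus ended near untreated 208F (-0.31 ± 0.35) but not near treated 208F, from which it differed by -2.30 ± 0.28. Of 9 measured skeletal muscle genes none was called in treated FE8 against untreated 208F by its brightest probe set, with a median of -0.10. Des, at 1.77 ± 0.54, was just short of the threshold (limma adjusted p = 0.0504), and 2 of the 3 probe sets of Cav3 were called lower, the lowest at -1.39. The summed signals of the 9 were 2602 and 2088 in treated FE8 and 1930 in untreated 208F.

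Txnip, which binds and inhibits thioredoxin, had 459 and 491 in treated FE8, 46 in untreated FE8, 939 and 1160 in treated 208F and 329 in untreated 208F, so that it reached the 208F level (0.46 ± 0.33) after a start of -1.84. Ptms (parathymosin, -0.22 ± 0.34) and Hmox1 (heme oxygenase, -0.48 ± 0.34) ended closest to zero among the others named. Fat1, an atypical cadherin, Plpp1, a lipid phosphatase, and Ephx1, microsomal epoxide hydrolase, ended between -0.89 and -0.73, with lower interval bounds between -1.70 and -1.47. Clu (clusterin, an extracellular chaperone) had 3799 and 3293 in treated FE8, 2136 in untreated FE8, 11176 and 7531 in treated 208F, and 5639 in untreated 208F. It counted as reached at -0.66 ± 0.30 (adjusted p = 0.18), though both treated FE8 arrays lay below all 3 arrays of 208F. The drug effect in FE8 was not called for Clu, Hmox1 or Ephx1.

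Reaching from above was led by enzymes. Scd, stearoyl-CoA desaturase, had 87 and 36 in treated FE8, 1300 in untreated FE8, 18 and 11 in treated 208F, and 13 in untreated 208F. Only the untreated FE8 array was clearly above 64, the remaining difference was 0.67 ± 0.41 after 4.15 at the start, and the second probe set of Scd was at 0.03. Sqle, squalene epoxidase of the cholesterol pathway, had 617 and 509 in treated FE8, 4970 in untreated FE8 and 1051 in untreated 208F, and passed slightly below the 208F array (-0.84 ± 0.33). Prdx3, a mitochondrial peroxiredoxin, had 2635 and 1405 in treated FE8, 4904 in untreated FE8 and 1082 in untreated 208F. The glutathione transferase Gsto1, the aminotransferase Got1, the recycling GTPase Rab11a, the phospholipase Pld2 and Cth, which makes cysteine, ended between 0.75 and 0.98 above 208F. Rab11a is uncertain, since another of its 3 probe sets was called higher at 1.33. The drug effect in FE8 was not called for Got1, Rab11a, Pld2 or Cth. Of all 58 reached probe sets, only 11 had a 95% interval that stayed wholly within 1 log2 unit, and 47 were undecided by that measure.

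**Figure D3:**
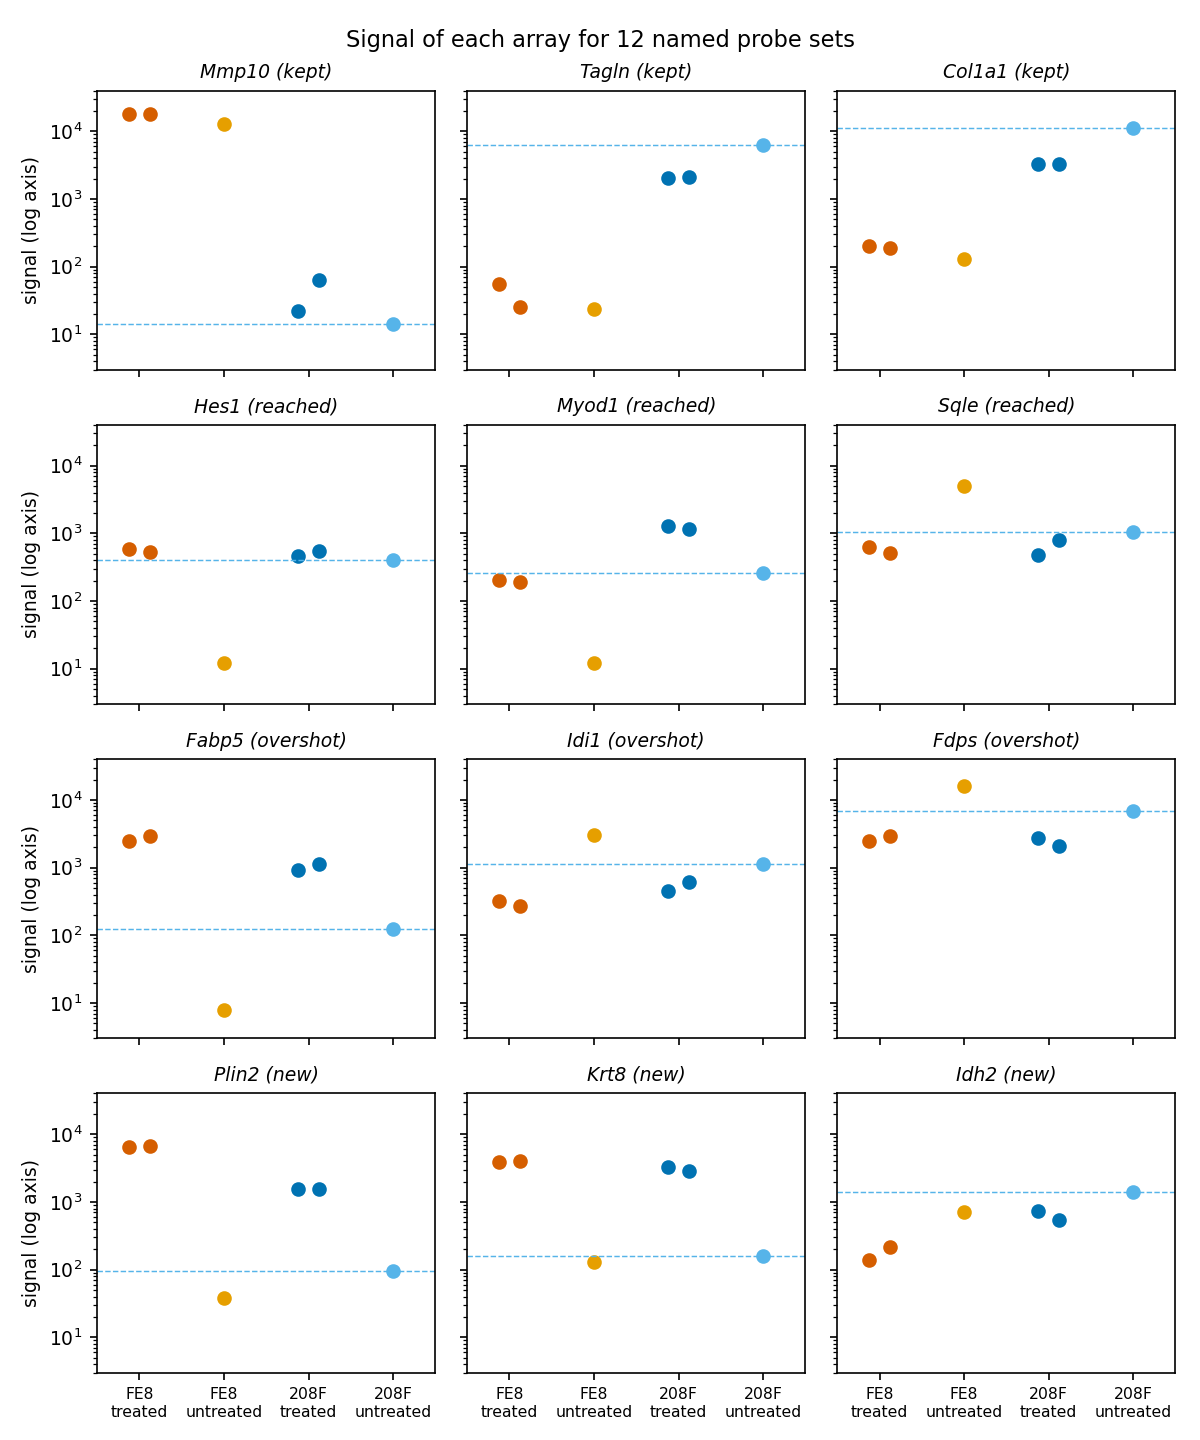
Signal of each of the 6 arrays on a log axis for 12 named probe sets, with the groups treated FE8, untreated FE8, treated 208F and untreated 208F from left to right and the untreated 208F level as a dashed line. Mmp10, Tagln and Col1a1 stay far from the line in treated FE8, Hes1, Myod1 and Sqle come near it, and Fabp5, Idi1 and Fdps cross it.

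The 5 overshooting probe sets belonged to 4 named genes, and 1 had no gene in the annotation used. Fabp5, a fatty acid-binding protein, had 2493 and 2977 in treated FE8, 8 in untreated FE8, 928 and 1142 in treated 208F, and 125 in untreated 208F. Its untreated FE8 array was the lowest of the 6 and its treated FE8 arrays were the highest, 3.88 ± 0.31 above untreated 208F (adjusted p = 8.4e-06) after a start of -1.39. The other 3 were sterol pathway enzymes that crossed downward. Idi1, isopentenyl-diphosphate isomerase, had 318 and 270 in treated FE8, 3065 in untreated FE8, 456 and 616 in treated 208F, and 1139 in untreated 208F, at -1.75 ± 0.31. Fdps, farnesyl diphosphate synthase, had 2510 and 2885 in treated FE8, 16153 in untreated FE8 and 6754 in untreated 208F, at -1.31 ± 0.28. Msmo1, a methylsterol oxidase, had 734 and 907 in treated FE8, 6101 in untreated FE8 and 1832 in untreated 208F, at -1.11 ± 0.30.

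These 3 calls were not firm. Without treated FE8 replicate 1 the adjusted p was 0.15 for Fdps and 0.22 for Msmo1, and without replicate 2 it was 0.059 for Idi1, 0.099 for Fdps and 0.12 for Msmo1. Other probe sets of the same genes were lower by less than 1 log2 unit (-0.40 for Idi1, -0.94 and -0.20 for Fdps, -0.87 for Msmo1), so that only 1 probe set of each overshot. The count of overshooting probe sets was 1 when treated FE8 replicate 1 or 2 was left out, and 11 and 10 without treated 208F replicate 1 and 2.

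The cholesterol synthesis genes lay on opposite sides of untreated 208F with and without the drug. Its 15 measured genes had a median difference of -0.84 in treated FE8 and of 1.01 in untreated FE8, and all 15 were below untreated 208F in treated FE8, between -2.23 and -0.11. Of these, 4 were called lower and 11 were not called, by their brightest probe sets. Among the 11, Insig1 and Msmo1 each had 1 of 2 probe sets called, with lowest values of -1.42 and -1.11. Acat2, acetyl-CoA acetyltransferase at the entry of the pathway, had 727 and 698 in treated FE8, 6403 in untreated FE8, 859 and 1263 in treated 208F, and 3568 in untreated 208F, at -2.23 ± 0.30. Treated 208F was below untreated 208F too, with a list median of -0.71, and treated FE8 against treated 208F had a median of -0.11. The SREBP motif TCACNCCAC, sought on both strands, stood in none of the 13 promoter windows of the list in the table, beside 1.13% of all promoters, and no more than that can be read from it.

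Several lipid storage genes lay far above the immortal line. Plin2, the coat protein of lipid droplets, had 6483 and 6738 in treated FE8, 38 in untreated FE8, 1568 and 1551 in treated 208F, and 96 in untreated 208F. Both treated lines lay above both untreated ones, with treated FE8 highest, and its difference of 5.38 ± 0.27 (adjusted p = 5.9e-07) was new, though the second probe set gave 1.12. Fabp4, another fatty acid-binding protein, had 662 and 841 in treated FE8, 188 in untreated FE8 and 2 in untreated 208F, at 3.62 ± 0.39. Cpt1a, which admits fatty acids to mitochondria, was higher by 1.54 ± 0.29 and Acsl4 by 1.79 ± 0.43, while Fasn, fatty acid synthase, was lower at -1.56 ± 0.32. Of 14 measured genes of lipid handling, 5 were higher, 1 was lower and 8 were not called.

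New differences, called in treated FE8 where untreated FE8 had been within 1 log2 unit of 208F, numbered 411 (8.53% of all probe sets), 255 higher and 156 lower. They made up 55.2% of the 744 calls. New does not require a called drug effect in FE8. Such an effect was called for 140 of the 255 higher and 65 of the 156 lower. The number was 110 and 125 without treated FE8 replicate 1 and 2, and 766 when treated 208F replicate 1 or 2 was left out.

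Interferon genes were among the highest in treated FE8. Of 11 measured interferon response genes, 8 were higher, none was lower and 3 were not called, with a median of 2.21 in treated FE8 against 0.06 in untreated FE8. Rsad2 (viperin, an antiviral protein) had 7218 and 12230 in treated FE8, 137 in untreated FE8, 313 and 520 in treated 208F, and 10 in untreated 208F. Both treated FE8 arrays were above all others, and the difference was 7.00 ± 0.38 (adjusted p = 8.7e-07), with 5.50 by the other probe set. Irf7, the factor that amplifies type I interferon, had 2497 and 5724 in treated FE8, 346 in untreated FE8 and 330 in untreated 208F, at 3.29 ± 0.41. Mx2, an antiviral GTPase, had 298 and 880 in treated FE8 and 25 in untreated 208F (2.72 ± 0.59), and Gbp2, a guanylate-binding protein, had 285 and 754 in treated FE8 and 23 in untreated 208F (2.62 ± 0.55). For Rsad2, Irf7, Gbp2 and Mx2 the second treated FE8 array was the higher. Both treated FE8 arrays lay above untreated 208F for these genes, which the calls largely entail, as for all 744 called probe sets. Rsad2 and Mx2 do not count as new, since untreated FE8 stood at 1.44 and 1.09, without a call. Irgm2, an interferon-induced GTPase, was higher by 3.18 ± 0.42.

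The interferon-stimulated motif GAAANNGAA was sought on both strands. It stood in 6 of the 10 interferon gene promoters in the table, beside 9.50% of all promoters and 7.61% of those of measured genes. The matches are in capitals, and where the motif lies on the other strand the capitals read as its reverse complement.
Rsad2: tggttcaactTTCATTTTCagaaaacaga
Irf7: cagtttaggtTTCATTTTCccgagacgca
Oas1a: cccctctcggGAAATGGAAactgaaaatc
Eif2ak2: agtccgccggGAAAACGAAacagagagaa
Cxcl10: cgctttgGAAAGTGAAacttaactca
Gbp2: gttttttagtTTCACTTTCattgtcttaa
Oas1a, which makes the activator of RNase L, holds a second, overlapping match and was higher by 1.19 ± 0.34. Eif2ak2, the double-stranded RNA kinase PKR, was not called at 1.40 ± 0.45, with 1586 and 2157 in treated FE8, 347 in untreated FE8 and 663 in untreated 208F.

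Chemokines followed. Cxcl10, a T cell chemokine, had 8112 and 11840 in treated FE8, 4348 in untreated FE8 and 509 in untreated 208F, a difference of 4.11 ± 0.31 after a start of 2.94. Ccl2, a monocyte chemokine, had 5194 and 6623 in treated FE8, 610 in untreated FE8, 691 and 810 in treated 208F, and 100 in untreated 208F, at 5.18 ± 0.29. Of 9 measured chemokines and cytokines, 4 were higher and 5 were not called. Among 9 genes of MHC class I presentation, the immunoproteasome subunits Psmb8 (3.94 ± 0.31) and Psmb9 (1.72 ± 0.38) were higher. The other 7 were not called by their brightest probe sets, B2m among them at 0.74 ± 0.30. Of these 7, Tap1 had 1 of 2 probe sets called and RT1-S3 1 of 3, with highest values of 2.06 and 2.52.

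Epithelial genes, which are mostly low in fibroblasts, gave the highest median of the 29 lists, 3.41 in treated FE8 against 0.06 in untreated FE8. The list members were chosen with earlier results of these data known, so this rank is a description only. Of 7 measured, 6 were higher and Cldn7 (0.74 ± 0.38) was not called. Among the 6, 5 were new, and Mal, a membrane raft protein, had been higher before the drug, with 1028 and 1687 in treated FE8, 924 in untreated FE8, 93 and 69 in treated 208F, and 54 in untreated 208F (3.55 ± 0.38 after a start of 3.07). Krt8, a keratin of simple epithelia, had 3838 and 4077 in treated FE8, 131 in untreated FE8, 3250 and 2825 in treated 208F, and 159 in untreated 208F. Treated cells of both lines lay high and untreated cells of both lines low, and treated FE8 stood 4.17 ± 0.27 above untreated 208F. Cd24, a surface glycoprotein, had 1315 and 1745 in treated FE8, 68 in untreated FE8, 962 and 957 in treated 208F, and 10 in untreated 208F (4.42 ± 0.33). Epcam, an epithelial adhesion protein, had 335 and 199 in treated FE8 and 6 in untreated 208F (2.21 ± 0.44), and the protease inhibitor Spint2 stood at 3.41 ± 0.37. The summed signal of the 7 was 7438 and 8827 in treated FE8, 1273 in untreated FE8, 5376 and 4777 in treated 208F, and 321 in untreated 208F. No epithelial cells are named in the labels, and a part of other cells in the result was not tested. The tetraspanin Cd9, outside the list, was a new difference as well at 4.14 ± 0.39.

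Some genes of neurons and germ cells were higher too. Chrna7, a nicotinic acetylcholine receptor subunit, had 3230 and 4023 in treated FE8, 115 in untreated FE8, 3756 and 4627 in treated 208F, and 53 in untreated 208F, at 4.97 ± 0.29, but its second probe set gave 0.15. Th, tyrosine hydroxylase of catecholamine synthesis, had 2048 and 1729 in treated FE8, 270 in untreated FE8 and 64 in untreated 208F, at 3.93 ± 0.33 after a start of 1.38. Of 6 measured neural markers these and Ptprn were higher and Snap25, Nefh and Syp were not called, so the summed signal of 9035 and 9143 in treated FE8 against 736 in untreated 208F came mostly from 3 genes. Sycp3, a synaptonemal complex protein of meiosis, had 1056 and 961 in treated FE8, 6 in untreated FE8, 93 and 529 in treated 208F, and 2 in untreated 208F, at 4.02 ± 0.62. Its treated 208F duplicates differed widely, while those of FE8 did not. The germ cell helicase Ddx4 was higher by 1.90 ± 0.50, with 213 and 282 in treated FE8 and 19 in untreated 208F.

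Most measured p53 targets were higher in treated FE8, and about as many replication and mitosis genes were lower as were not called. Cdkn1a, the p53-induced inhibitor p21 of cyclin-dependent kinases, had 2202 and 3104 in treated FE8, 43 in untreated FE8, 3476 and 1767 in treated 208F, and 105 in untreated 208F, at 3.99 ± 0.39. Of 5 measured p53 targets, 4 were higher, all of them new, with Gdf15 at 2.97 ± 0.39, Mdm2 at 1.96 ± 0.26 and Gadd45a at 0.97 ± 0.29. Gadd45a had started at 0.80, and its drug effect in FE8 was only 0.17 ± 0.29. Ccng1 was not called (0.08 ± 0.30).

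Of 10 measured genes of DNA replication and S phase entry, 5 were lower and 5 were not called, and of 9 mitotic genes 5 were lower and 4 were not called. The list medians were -1.08 and -1.17 in treated FE8, beside -0.30 and -0.05 in untreated FE8. Mcm7, a subunit of the replicative helicase, had 1103 and 1154 in treated FE8, 2348 in untreated FE8, 1350 and 1227 in treated 208F, and 3628 in untreated 208F (-1.63 ± 0.26). Cdk1, the mitotic kinase, had 1004 and 1216 in treated FE8, 2507 in untreated FE8, 847 and 1022 in treated 208F, and 2604 in untreated 208F (-1.19 ± 0.28). For both genes the treated arrays of the 2 lines lay together, below both untreated arrays. Pold1, a DNA polymerase delta subunit (-2.34 ± 0.45), the centriole kinase Plk4 (-2.17 ± 0.32), gamma tubulin Tubg1 (-2.14 ± 0.32), the kinesin Kifc1 (-2.10 ± 0.42) and the spindle pole protein Wdr62 (-2.31 ± 0.41) were among the largest new differences on the lower side. Pold1 and Kifc1 were not called without treated FE8 replicate 1 (adjusted p = 0.058 and 0.061).

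Among probe sets with a gene name, the largest new difference on the lower side was that of Idh2, mitochondrial isocitrate dehydrogenase, with 139 and 218 in treated FE8, 705 in untreated FE8, 746 and 547 in treated 208F, and 1413 in untreated 208F, at -2.63 ± 0.35. The proteoglycan Bgn (biglycan) had 898 and 654 in treated FE8, 2309 in untreated FE8 and 4250 in untreated 208F, at -2.38 ± 0.29. Cyp51, lanosterol demethylase, was at -2.18 ± 0.33 by 1 probe set and between -1.38 and -0.89 by 4 others. Its brightest probe set had started 1.39 above 208F and counted as reached from above at -0.96, so Cyp51 was not new by that probe set. Pdia6, a protein disulfide isomerase, had 1777 and 2255 in treated FE8 and 8851 in untreated 208F (-2.11 ± 0.29). By brightest probe sets it was the 1 lower gene among 10 measured endoplasmic reticulum chaperones, and 9 were not called. Among those 9, Calr and P4hb each had 1 of 3 probe sets called, with lowest values of -1.29 and -0.98.

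**Figure D4:**
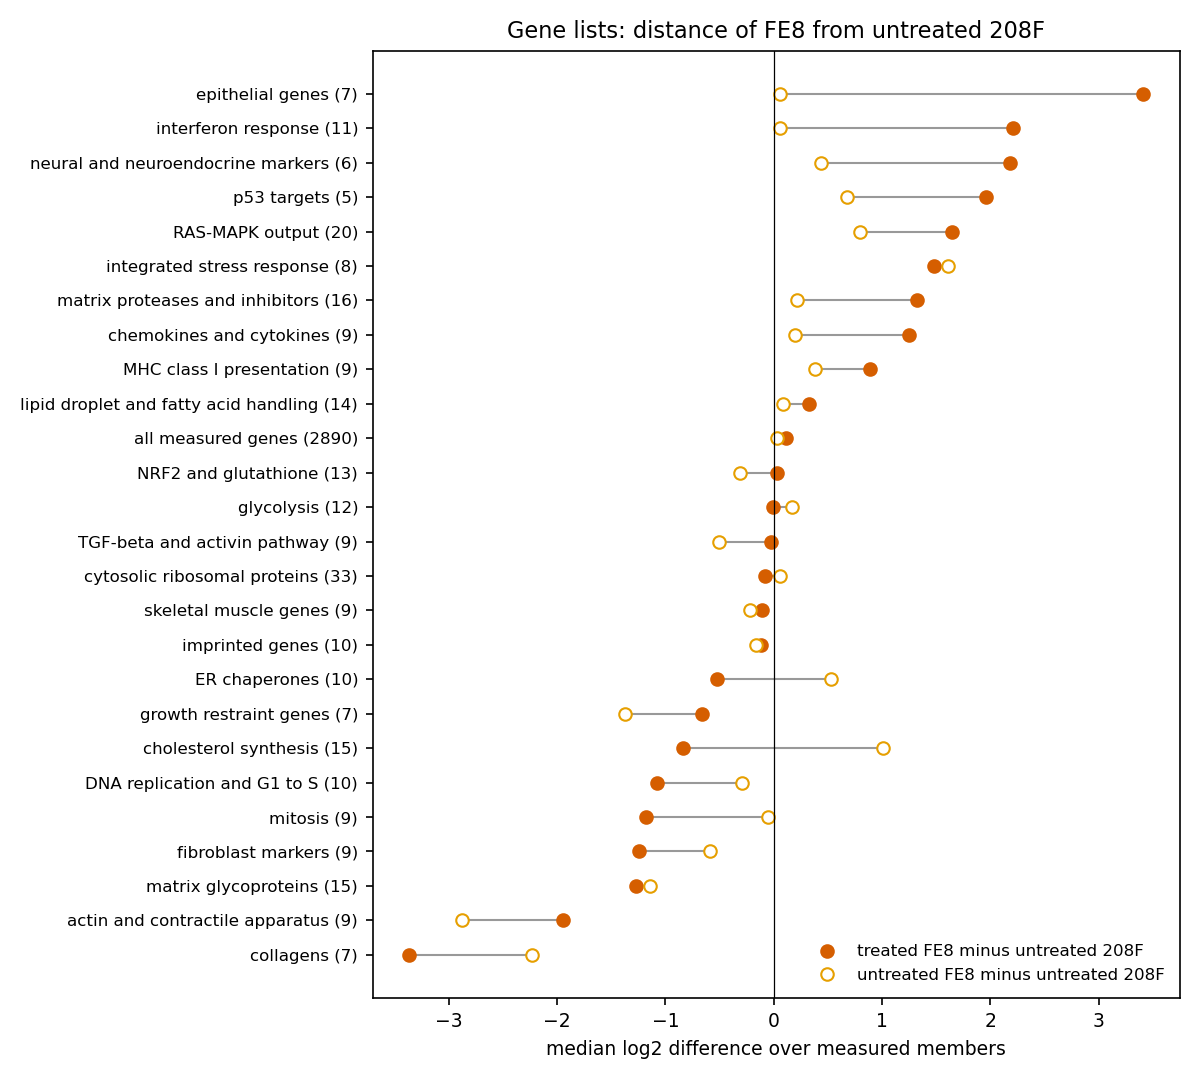
Median log2 difference from untreated 208F of the measured members of each gene list (number in brackets) on the x axis, for treated FE8 (filled) and untreated FE8 (open), both against the same 208F array. Epithelial and interferon lists stand right of zero in treated FE8 and near it (0.06) in untreated FE8, the p53 list lies right of zero in both (1.96 and 0.68), collagens lie far left in both, and cholesterol synthesis lies right of zero in untreated FE8 and left of it in treated FE8.

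In several lists most genes were not called, as held for 2444 of all 2890 measured genes (265 higher, 181 lower). Of 33 cytosolic ribosomal protein genes, 1 was lower and 32 were not called, with a median of -0.08. Of 12 glycolytic genes, Pfkp, the platelet phosphofructokinase, was higher at 3.31 ± 0.31, Pfkl, the liver form, was lower at -1.19 ± 0.33, and 10 were not called. Of 13 NRF2 and glutathione genes, Nqo1 (1.26 ± 0.26) and Gclc (1.18 ± 0.32) were higher and Me1 (-1.09 ± 0.29) was lower. Among 10 imprinted genes Grb10 and Plagl1 (-1.16 ± 0.33) were lower and 8 were not called. H19, an imprinted RNA, had 45 and 24 in treated FE8, 22 in untreated FE8 and 79 in untreated 208F, but 1830 and 1560 in treated 208F. Dnmt1, the maintenance methyltransferase that the drug traps, had 878 and 973 in treated FE8 and 1228 in untreated 208F and was not called (-0.39 ± 0.28).

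Genes reported to restrain growth and to be low in RAS-transformed cells were divided. Of 7 measured, Tpm1 (tropomyosin, -3.01 ± 0.29), Lox (-2.70 ± 0.27) and Cryab, a small heat shock protein, were lower, and Clu, Dab2, Gas6 and Cav1 were not called by their brightest probe sets. The list was picked with results of such lines known and is no independent evidence of its direction. Cryab narrowed to -1.65 ± 0.31 after a start of -3.88, with 490 and 341 in treated FE8, 37 in untreated FE8, 6365 and 4939 in treated 208F, and 1420 in untreated 208F. Treated FE8 thus stayed below both groups of 208F. Of the 9 measured TGF-beta pathway genes, the inhibitors of differentiation Id1 (1.54 ± 0.29), Id2 (2.18 ± 0.35) and Id3 (1.21 ± 0.26) were higher and Tgfb3 was lower.

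Promoter CpG content was compared between the outcomes as a feature the comparison did not use. A window was called CpG-rich with at least 50% GC and an observed to expected CpG ratio of at least 0.6, which held for 68.1% of the 2432 measured genes with a promoter in the table. It held for 13 of 14 genes (92.9%) that reached the 208F level from below and for 19 of 27 (70.4%) that reached it from above. Among kept genes it held for 10 of 22 that narrowed (45.5%), 15 of 27 that widened (55.6%) and 46 of 71 between (64.8%). New higher genes had it in 89 of 143 cases (62.2%) and new lower genes in 79 of 101 (78.2%). These shares are a description over small sets of genes without a test.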

How the data were processed

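Total RNA of each sample was labelled with biotin and hybridised to an Affymetrix rat array, per the labels. Each deposited value is the intensity of a probe set, linear and in whole numbers, made by the authors with MAS5, per the submitters' processing notes, with neither version nor settings, and were used as deposited. The table held 4847 probe sets, by a selection that is not given in the sources used here. Leaving out 29 controls, 4818 were tested as log2(signal + 64), where 64 is the 10th percentile of all signals. There are no detection calls, so differences of signals near or below 64 are held down in size by the pseudocount. Precision is limited by the number of arrays.

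limma 3.58.1 (R 4.3.3) fitted 4 group means over all 6 arrays by lmFit, and eBayes with a trend on intensity moderated the error, which rests on 2 residual degrees of freedom and 9.02 from the prior. Lacking replicates, each untreated array was taken to vary like the treated duplicates. Tests were 2-sided, adjusted by Benjamini-Hochberg over 4818 probe sets at 0.05, and ± is the standard error of a log2 difference. The fit was tested on simulated data.

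Of the probe sets, 3956 had 1 gene (2890 genes), 207 several and 655 none, named through RefSeq of GRCr8. Named genes, 1 probe set each (smallest p), were the 15 highest and 15 lowest called, 8 per outcome, 10 new per direction, up to 4 list members per direction by absolute difference, and Clu. Some further list members named for context fall outside this rule and were chosen after their values were seen. Lists read a gene by its brightest probe set, so its value can differ from the named one. Of 39 named genes with another probe set, 1 (Sparc) had one of opposite sign. The members and the 29 lists (281 of 554 genes measured) were chosen with earlier results of these data known.

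Alternatives were other pseudocounts, scalings, filters, limits, single arrays left out and a replicate block. Replicate numbers occur on treated arrays alone, so they cannot pair treated FE8 with untreated 208F.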

Additional observations from a re-analysis of the deposited data

How the results depend on the processing

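The direction of all 59 called named genes was kept under every alternative that gave them a value. The number of calls (744) was 1178 with the 3 compared arrays alone and 288 to 1181 when 1 array was left out. It was 782 after median scaling (382 higher, 400 lower), which moves the median of all probe sets by 0.12, and 558 without probe sets that may be shared between transcripts, an alternative chosen after seeing the data. With a replicate block for the treated arrays it was 837, and no named call was lost. New differences (411) numbered 766 with the 3 arrays, 237 when the start had to lie under 0.5, and 110 to 766 with 1 array left out. Reached (58) fell to 30 without the intensity trend, 36 after quantile normalization, 19 within 0.5 log2 units, 11 by the 95% interval and 11 of 159 starting differences of at least 2, and ranged from 4 to 201 with 1 array left out; it was 85 with the higher pseudocount. Overshot (5) was 2 at a mean signal of 200 or more, without the trend or after quantile normalization, 3 without shared probe sets, with the higher pseudocount or with the replicate block, 8 with the lower pseudocount of 16, 12 within 0.5, 1 for starts of at least 2, and 1 to 11 with 1 array left out. Kept (222) was 147 for starts of at least 2 and 104 to 329 with 1 array left out. With the 3 arrays alone no starting differences exist, so outcomes were not run there. Of named calls, 7 were lost without treated FE8 replicate 1, 4 without replicate 2 and 1 (Msmo1) without the trend. Signals near the pseudocount and 1 untreated array per line limit every size given.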

Other observations

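Beyond the genes described, 108 of the 744 called probe sets (14.5%) had started at least 1 log2 unit from untreated 208F without passing the test there, 104 of them on the same side. Further signalling and transport genes narrowed. Plcd4, a phospholipase C, had 527 and 471 in treated FE8, 1235 in untreated FE8, 82 and 72 in treated 208F, and 4 in untreated 208F, at 3.05 ± 0.36 after a start of 4.26. Its drug effect in FE8 was not called. Slc6a15, an amino acid transporter, had 290 and 190 in treated FE8, 1050 in untreated FE8 and 10 in untreated 208F, at 2.02 ± 0.41 after a start of 3.91. Gas6, the ligand of the Axl receptor family, had 332 and 295 in treated FE8, 63 in untreated FE8 and 1409 in untreated 208F by the probe set with the smallest p (-1.97 ± 0.32), while its brightest probe set was not called (-0.49 ± 0.37).

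The follistatin gene Fst, a secreted activin antagonist, had 658 and 508 in treated FE8, 71 in untreated FE8, 1825 and 2422 in treated 208F, and 257 in untreated 208F. All 4 treated arrays lay above both untreated ones, and the difference of treated FE8 from untreated 208F was 1.00 ± 0.33 (limma adjusted p = 0.063), just short of the threshold. Cav1 (caveolin, a membrane protein) had 1951 and 1437 in treated FE8, 586 in untreated FE8 and 1747 in untreated 208F, so that the 208F array lay between the treated FE8 duplicates.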
